A study of Homo sapiens with 4 samples.

Results

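The 10 genes described here are feedback regulators and transcriptional outputs of the kinase ERK. They are DUSP4, DUSP5, DUSP6, SPRY2, SPRY4, SPRED1, SPRED2, ETV4, ETV5 and PHLDA1, chosen by symbol for these roles out of 19663 protein-coding genes. The question was whether c-MYC was found at these genes and whether it was still found there when signalling was inhibited. Binding was measured by ChIP-seq, short for chromatin immunoprecipitation with sequencing: an antibody recovers the DNA that a protein is bound to, the DNA is sequenced, and a peak is called wherever reads pile up above the local background. All libraries came from MIA PaCa-2 cells, a human line derived from a pancreatic ductal adenocarcinoma. Cells were exposed for 8 h to the solvent DMSO, to 100 nM of the inhibitor AMG510, whose target is not reported here, or to 10 nM of trametinib, an inhibitor of the kinase MEK. A c-MYC antibody was used for 1 library of each treatment, and non-specific immunoglobulin (IgG) for 1 further library of DMSO-treated cells. The lists held 9552 peaks for DMSO c-MYC, 10378 for AMG510, 5431 for trametinib and 2966 for IgG. No group was replicated, so every difference below is between single libraries of 1 cell line and has no replicate check. Peak lists hold no expression values, so neither the cell type nor the effect of the inhibitors on transcription could be checked.

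ERK is the last kinase of the RAF–MEK–ERK cascade, which carries growth signals from the cell membrane to the nucleus. Active ERK induces proteins that switch the cascade off again, which makes their genes a common readout of pathway output. ERK also phosphorylates c-MYC and thereby affects its stability. With its partner MAX, c-MYC binds the E-box, of which CACGTG is the canonical and CACGCG a noncanonical form. Only these forms were searched for here, and other forms of the E-box were not.

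c-MYC was found at the promoters of 5 of these 10 genes in at least 1 library, and in each single library at about the share that genes in general showed. A promoter peak, that is, a peak whose summit was at most 1 kb from where a coding transcript starts (its transcription start site, TSS), was present at 3 of the 10 genes in DMSO c-MYC, at DUSP5, SPRED1 and ETV4. In AMG510 it was present at 1 gene, SPRY4, and in trametinib at 2, SPRED1 and SPRED2. The IgG library had 0. No promoter peak in any of the 4 libraries was the case at the other 5 members and at 68.0% of all protein-coding genes. Among all 19663 protein-coding genes the share with a promoter peak was 24.2% for DMSO c-MYC and 0.559% for IgG, and with the inhibitors it was 15.3% (AMG510) and 11.8% (trametinib). The members' shares of 30%, 10% and 20% in the c-MYC libraries were therefore near those of all genes, since 1 gene more or less moves a share of 10 genes by 10 points. The canonical TSS of all 10 genes lies in CpG-rich sequence (defined below), as it does at 51.4% of all genes. Promoter peaks also count at other coding start sites, which were not classed in this way. Of CpG-rich promoters, 37.8% had a peak in DMSO c-MYC, 23.9% in AMG510 and 18.7% in trametinib; on 10 genes these shares would amount to between 2 and 4 genes.

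**Figure D1:**
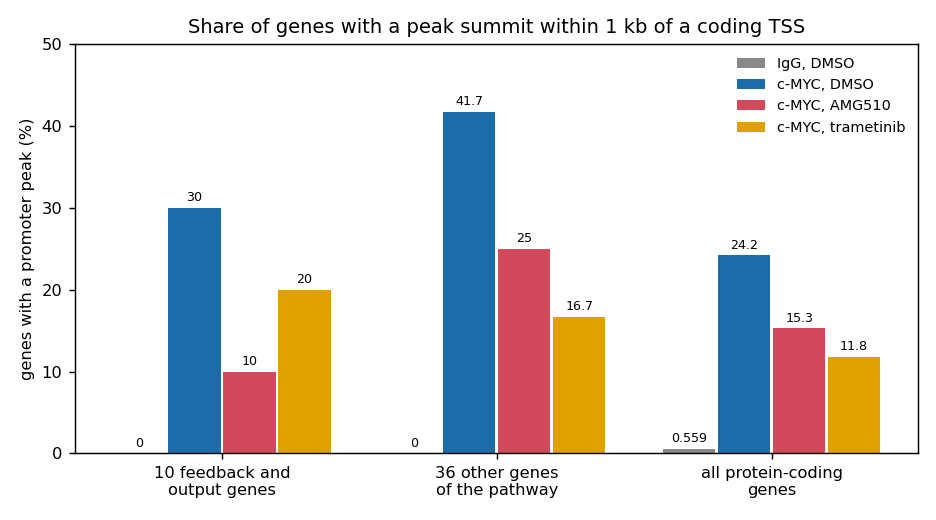
Percentage of genes (vertical axis) with a promoter peak in each of the 4 libraries, for the 10 feedback and output genes, for 36 other genes of the ERK pathway and for all 19663 protein-coding genes; each bar is 1 library and the number above it is its value. The 10 genes sit at 30% in DMSO c-MYC against 24.2% of all genes, and the other pathway genes at 41.7%.

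A wider search, for any peak in the gene or within 10 kb of it, gave a similar picture. It found peaks at 4 genes in DMSO c-MYC, at 3 under each inhibitor and at 1 in IgG. Over all protein-coding genes the shares were 38.9% (DMSO c-MYC), 33.8% (AMG510), 22.9% (trametinib) and 7.89% (IgG). The chance of a peak grows with the length searched, and 4 members, SPRED1, SPRED2, ETV4 and ETV5, are longer than 50 kb. Of these, 3 had a peak in DMSO c-MYC, 2 in AMG510 and 2 in trametinib, where all genes over 50 kb had one in 47.5%, 47.2% and 29.8% of cases. Of the 6 shorter members, 1 had a peak in each c-MYC library (DUSP5 in DMSO and SPRY4 under each inhibitor), where shorter genes in general had one in 34.4%, 26.9% and 19.4% of cases. Per 100 kb of sequence searched, the members held 0.83 peaks in the DMSO c-MYC list, 0.50 in each inhibitor list and 0.17 in the IgG list, where the windows of all protein-coding genes held 0.48 (DMSO c-MYC), 0.44 (AMG510), 0.25 (trametinib) and 0.10 (IgG). These densities rest on 5, 3, 3 and 1 peaks.

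**Figure D2:**
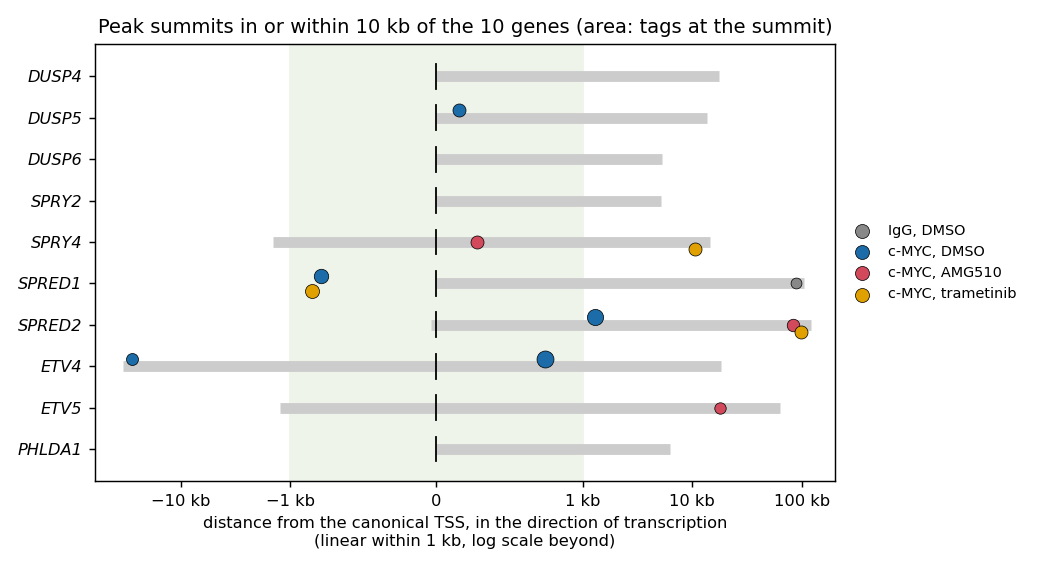
Position of every peak summit in or within 10 kb of the 10 genes, as distance from the canonical TSS in the direction of transcription (horizontal axis, linear within 1 kb and logarithmic beyond it), with 1 row per gene, a grey bar for the gene, a black tick for the TSS and shading for the 1 kb on each side of it. Points are coloured by library and their area follows the tags at the summit; DUSP4, DUSP6, SPRY2 and PHLDA1 have no point, and SPRED1 is the single gene with points of 2 libraries at the same place.

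The phosphatases DUSP4, DUSP5 and DUSP6 remove the activating phosphates from ERK. DUSP5 acts in the nucleus and was the single phosphatase of the 3 with a peak. DUSP5 is on chromosome 10 (110497907 to 110511533, plus strand; all coordinates are GRCh38). In DMSO its peak ran from 110497923 to 110498220, with the summit 155 bp downstream of the TSS, in the 5′ untranslated part (UTR) of exon 1. The summit held 13 tags (aligned reads piled up there, 95% Poisson interval 6.92 to 22.2) over a local background of 2.25, a fold enrichment of 4.31. That is below the median of 4.90 for promoter peaks of the DMSO list, and above 38.2% of all its peaks. Neither inhibitor list nor the IgG list had a peak there, and the nearest summits were 52.5 kb from the TSS in AMG510 and 69.8 kb in trametinib. The peak sits in GC-rich sequence without CACGTG or CACGCG, with 39 CpG within 100 bp of the summit. The 30 bases at the DMSO summit, shown as an example of this sequence, hold 2 CpG at a GC content of 76.7%. They read, on the coding strand (chr10:110498047-110498076),
DUSP5: ctggccgtggacaccctggccgtgggcacc

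DUSP4, a nuclear phosphatase, and DUSP6, a cytoplasmic one that is among the most used markers of ERK activity, had no peak within 50 kb of the gene in any library. DUSP4 is on chromosome 8 (29333064 to 29350684, minus strand). The summit nearest to its TSS was 539.8 kb away in DMSO c-MYC and 276.3 kb in IgG; with AMG510 the distance was 69.5 kb and with trametinib 184.7 kb. DUSP6 is on chromosome 12 (89347235 to 89352501, minus strand). Its nearest summit was 2792.6 kb away in DMSO c-MYC and 881.2 kb in IgG, against 174.8 kb (AMG510) and 566.5 kb (trametinib). A missing peak means only that the pileup stayed below the calling limit, or that a called peak lay in a region the authors excluded. At the genome-wide background that limit was 8 tags in DMSO and trametinib c-MYC and 7 in AMG510 and IgG. It was higher where the local background was higher.

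The Sprouty proteins SPRY2 and SPRY4 restrain the cascade near the membrane, between the receptor and RAF. SPRY2 (chromosome 13, 80335976 to 80341126, minus strand) had no peak within 50 kb in any library, the nearest summit being 204.0 kb away, in AMG510. SPRY4 had peaks under both inhibitors and none in DMSO. It is on chromosome 5 (142310427 to 142326455, minus strand). The AMG510 peak, from 142324646 to 142324832, had its summit in intron 1, 280 bp downstream of the canonical TSS. It held 13 tags (6.92 to 22.2) over a background of 4.25 and was at the edge of what was called, with a fold enrichment of 2.66, a deposited −log10 q of 1.33 and 0.1% of the AMG510 peaks below it. The start of the antisense RNA SPRY4-AS1 is within 1 kb of the same summit. The trametinib peak, from 142314321 to 142314501, lay in the coding part of exon 2, 10618 bp downstream of the TSS. It held 13 tags (6.92 to 22.2) over a background of 3.13, with a fold enrichment of 3.39, above 3.1% of the trametinib list. The SPRY4 peaks under the inhibitors were thus at different places and among the weakest of their lists. Of all genes without a promoter peak in DMSO, 6.47% had one in AMG510 and 4.33% in trametinib. The trametinib peak of SPRY4, 9779 bp from the nearest coding TSS, was not a promoter peak, so the trametinib share does not apply to it.

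SPRED1 and SPRED2 are Sprouty-related proteins that bind the GTPase-activating protein neurofibromin and hold RAF activation down. SPRED1 was the single member with a promoter peak in more than 1 library. It is on chromosome 15 (38252836 to 38357249, plus strand). The DMSO peak ran from 38251876 to 38252452, its summit being 789 bp upstream of the TSS, and the trametinib peak from 38251877 to 38252131, with its summit 849 bp upstream. All 255 bp of the trametinib peak lay inside the DMSO peak, of which they were 44.2%, and the summits were 60 bp apart. The DMSO summit held 16 tags (9.15 to 26.0) over a background of 1.98, and the trametinib summit 15 tags (8.40 to 24.7) over 1.66. These heights were well within each other's counting intervals. The fold enrichment was 5.70 in DMSO, above 81.7% of that list, and 6.01 in trametinib, above 90.4%. The AMG510 summit nearest to the TSS was 768.3 kb away. The IgG library had a single peak in the gene, of 9 tags (4.12 to 17.1), in intron 5 and 87604 bp from the TSS.

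The sequence of the trametinib peak, which is the part found in both lists (chr15:38251877-38252131, plus strand), is printed because it is the only stretch at these genes that was called in 2 lists. It has 20 CpG and a GC content of 61.2%, and neither CACGTG nor CACGCG, so that no letter is in capitals.
SPRED1: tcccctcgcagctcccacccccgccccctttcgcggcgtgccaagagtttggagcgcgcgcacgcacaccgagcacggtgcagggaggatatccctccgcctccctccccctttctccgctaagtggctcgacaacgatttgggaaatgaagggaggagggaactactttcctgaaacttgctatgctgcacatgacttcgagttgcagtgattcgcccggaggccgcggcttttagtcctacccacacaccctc

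SPRED2 had a peak in each c-MYC library, but at 3 places far apart. It is on chromosome 2 (65310851 to 65432637, minus strand). Its canonical TSS is at 65432599. The DMSO peak, from 65431141 to 65431612, was in intron 1. Its summit was 1289 bp downstream of the TSS, just outside the 1 kb limit, and the peak reached to within 1 kb of the TSS. With 20 tags (12.2 to 30.9) it was the second highest at these genes, but over a background of 3.81, so that the fold enrichment was 4.37, above 40.6% of the DMSO list. The AMG510 peak, from 65348889 to 65349045, lay 83604 bp downstream of the TSS, also in intron 1. It held 12 tags (6.20 to 21.0), with a fold enrichment of 5.38, above 85.1% of its list. The trametinib peak, from 65334630 to 65334847, lay in the coding part of exon 3, 97905 bp downstream of the canonical TSS. It counts as a promoter peak through the start of a shorter coding transcript 79 bp away. It held 13 tags (6.92 to 22.2), with a fold enrichment of 5.39, above 80.1% of its list. None of these peaks overlapped another, and no IgG peak lay within 10 kb of the gene.

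The DMSO peak in SPRED2 was the only one at these genes with CACGTG or CACGCG inside, and it held CACGCG several times. The sequence below covers 140 bp on each side of its summit (chr2:65431170-65431450, minus strand, the coding strand of SPRED2). Capitals mark the noncanonical E-box CACGCG, or CGCGTG where it lies on the opposite strand. There are 5 in this window, among 45 CpG and at a GC content of 78.6%, and 4 of them are within 100 bp of the summit, 1 of these across it.
SPRED2 DMSO peak: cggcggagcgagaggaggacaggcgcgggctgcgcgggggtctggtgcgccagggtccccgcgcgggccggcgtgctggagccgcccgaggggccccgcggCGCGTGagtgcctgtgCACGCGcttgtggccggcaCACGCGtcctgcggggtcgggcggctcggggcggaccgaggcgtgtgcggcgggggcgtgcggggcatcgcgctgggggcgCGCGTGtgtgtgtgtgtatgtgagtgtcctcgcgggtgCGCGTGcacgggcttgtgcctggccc
SPRED2 trametinib summit: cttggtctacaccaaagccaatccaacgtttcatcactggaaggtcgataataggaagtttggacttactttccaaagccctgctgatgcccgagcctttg

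The trametinib sequence (chr2:65334644-65334744, minus strand, 50 bp on each side of the summit) is set beside it to show how unlike the places are. It has 3 CpG, a GC content of 47.5% and no E-box of either form. Of the 9552 DMSO c-MYC peaks, 13.5% had at least 1 CACGCG within 100 bp of the summit, and 6 peaks, that of SPRED2 included, had 4 or more. The threshold of 4 was chosen after the SPRED2 sequence was seen.

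ETV4 and ETV5 are ETS-family transcription factors that ERK signalling induces and that carry part of its transcriptional output. ETV4 had the highest peak at these genes. It is on chromosome 17 (43527844 to 43579620, minus strand); the canonical TSS is at 43546340. In DMSO a broad peak ran from 43545291 to 43546144, over 854 bp. Its summit was in the coding part of exon 2, 740 bp into the canonical transcript and 71 bp from the TSS of another coding transcript. It held 22 tags (13.8 to 33.3) over a background of 3.31, with a fold enrichment of 5.34, above 74.8% of the DMSO list. A start of DHX8, a neighbouring gene, is within 1 kb of the same summit. A second and weaker DMSO peak, from 43573873 to 43574118, was 27609 bp upstream of the canonical TSS, inside the longest transcript of the gene. It held 11 tags (5.49 to 19.7), with a fold enrichment of 3.80, above 15.3% of the list. No peak of either inhibitor list or of IgG overlapped them, and the nearest summits were 185.1 kb from the TSS in AMG510 and 185.0 kb in trametinib. The 30 bases at the main summit, on the coding strand (chr17:43545585-43545614), are
ETV4: gagcggaggatgaaagccggatacttggac

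ETV5 (chromosome 3, 186046314 to 186110318, minus strand) had a single peak. It was in the AMG510 list, from 186090961 to 186091117 in intron 5, with its summit 18008 bp downstream of the TSS. It held 10 tags (4.80 to 18.4), with a fold enrichment of 4.36, above 46.6% of the AMG510 list. PHLDA1, which encodes a pleckstrin homology-like protein often used in scores of ERK output, is on chromosome 12 (76025447 to 76031776, minus strand) and had no peak within 50 kb in any library. Its nearest c-MYC summit was 86.0 kb away, in AMG510. The patterns of presence and absence were shared with many genes. No promoter peak in any library, as at DUSP4, DUSP6, SPRY2, ETV5 and PHLDA1, was the pattern of 13370 genes (68.0%). A promoter peak in DMSO c-MYC alone, as at DUSP5 and ETV4, was found at 2126 genes (10.8%), that of SPRED1 at 573 (2.91%), in AMG510 alone as at SPRY4 at 820 (4.17%) and in trametinib alone as at SPRED2 at 506 (2.57%).

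**Figure D3:**
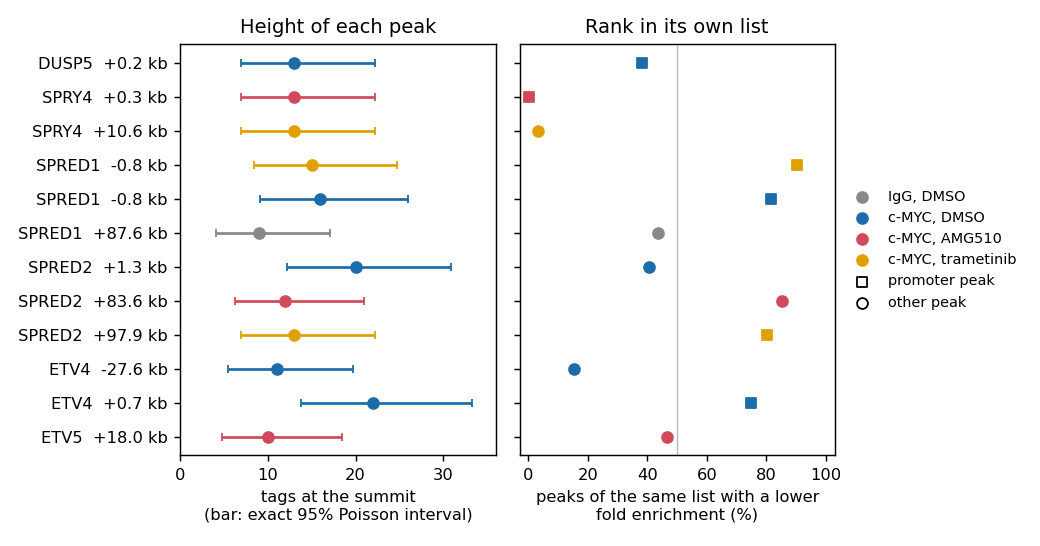
Left, tags at the summit of each peak in or within 10 kb of the 10 genes with its exact 95% Poisson interval; right, the percentage of peaks in the same list with a lower fold enrichment, with squares for promoter peaks and a line at 50%. Rows give the gene and the distance of the summit from the canonical TSS, and colours the library. Heights range from 9 to 22 tags with wide, overlapping intervals, and only the trametinib peak of SPRED1 is above 90% of its list.

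As a group, the peaks at these genes were of ordinary strength. The 11 peaks of the c-MYC libraries in or within 10 kb of the genes ranked above a median of 46.6% of the peaks in their own list, 5 had a fold enrichment above 5 and 1 was among the highest 10% of its list. The promoter peaks in DMSO, with 13, 16 and 22 tags, lay on both sides of the median of 16 tags for all 4617 DMSO promoter peaks. In trametinib the promoter peaks held 15 and 13 tags against a median of 14 for all promoter peaks, and in AMG510 the single one held 13 against a median of 13.

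The DMSO promoter peaks were then followed into the inhibitor lists; both comparisons use the same DMSO library. An AMG510 peak overlapped 0 of the 3 and a trametinib peak 1, that of SPRED1. Of all 4761 genes with a DMSO promoter peak, 43.0% also had one in AMG510 and 35.2% in trametinib. These shares count any promoter peak of the gene, overlapping or not, which is a looser measure. Counted that way, the 3 members also gave 0 in AMG510 and 1 in trametinib. The tags at a place without a peak are not in the files, but an upper limit can be had if the local background there is taken from the DMSO library and scaled by the genome-wide backgrounds. At SPRED1 this gave a background of 1.89 for trametinib, where the recovered value was 1.66. At ETV4 a call would then have needed 11 tags in either inhibitor library, less than the lower bound of 13.8 on the DMSO height. At SPRED1 8 tags would have sufficed in AMG510, where the lower bound in DMSO was 9.15, and at the intron 1 peak of SPRED2 12 tags in either, where it was 12.2. At DUSP5 9 tags were needed in either, above the lower bound of 6.92, so the limit lay inside the DMSO counting interval. The same holds for the second ETV4 peak, where 8 tags were needed in AMG510 and 9 in trametinib and the lower bound was 5.49. These intervals cover counting error only and are too narrow, because both mates of a read pair can count as tags. The DMSO heights are those of places that had passed the calling limit, and they were not scaled to the inhibitor libraries. Counting error in those libraries was left out, so whether binding was lost at any of these places was not tested.

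The sequence around the start sites was examined for what the members share. GC content within 1 kb of the canonical TSS had a median of 62.9% (57.4 to 66.9) against 56.0% over all genes, and the ratio of observed to expected CpG a median of 0.80 (0.68 to 0.97) against 0.64. Promoters with a GC content above 50% and a ratio above 0.6 were called CpG-rich, which held for all 10 members. CACGTG was found within 1 kb of the canonical TSS at 2 of the 10, SPRED2 and ETV4. The share was 29.2% for all genes, 33.4% for CpG-rich promoters and 42.2% for genes with a DMSO promoter peak. CACGCG, on either strand, was found at 8 of 10, all but SPRED1 and SPRED2, against 41.5% of all genes and 60.2% of CpG-rich promoters. At SPRY4 the CACGCG matches on the opposite strands overlap each other.

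The canonical E-boxes are shown with 12 bases on each side, on the coding strand of each gene, because they are the nearest to the start sites of any member. That of SPRED2 is 520 bp upstream of the TSS (chr2:65433102-65433131) and that of ETV4 518 bp upstream (chr17:43546841-43546870).
SPRED2 E-box: aatcacaagattCACGTGaaacggaaaagc
ETV4 E-box: gaacgaaatgagCACGTGgaagcggagcgc

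Neither was inside a peak. The E-box of SPRED2 was 1804 bp from the nearest summit at that gene, and that of ETV4 1253 bp. Of the 11 c-MYC peaks at the members, 0 held CACGTG and 1 held CACGCG, over the whole peak and also within 100 bp of the summit. In the whole lists CACGTG was within 100 bp of the summit for 11.3% of peaks (DMSO c-MYC), 6.18% (AMG510) and 9.15% (trametinib). For CACGCG the shares were 13.5% (DMSO c-MYC), 7.15% (AMG510) and 10.2% (trametinib).

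**Figure D4:**
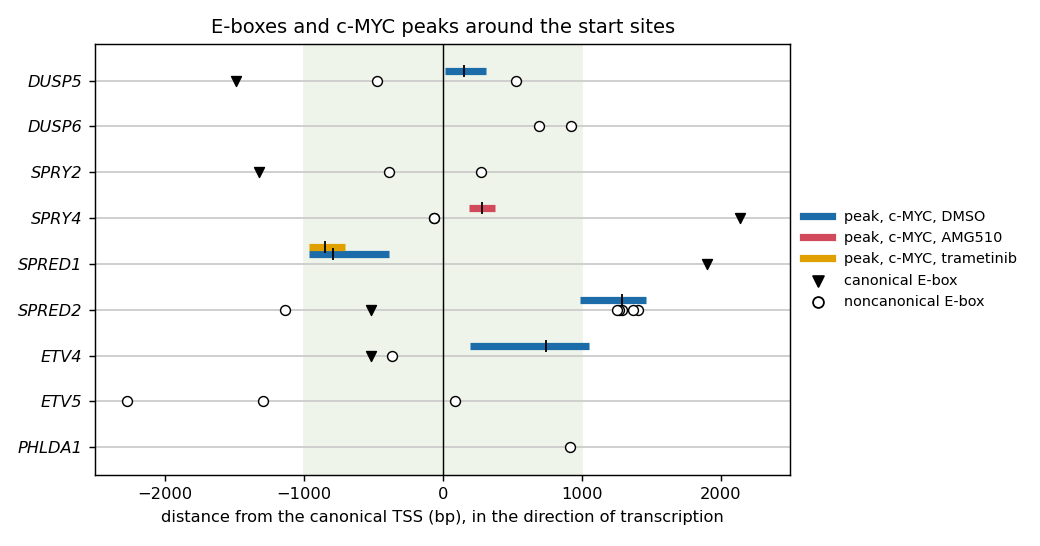
Canonical E-boxes (black triangles), noncanonical E-boxes of the form CACGCG (open circles) and c-MYC peaks (coloured bars, with a black tick at the summit) by distance from the canonical TSS in bp, with 1 row per gene and shading for the 1 kb on each side. DUSP4, which has 1 noncanonical and 0 canonical E-boxes within 1 kb of its TSS and no peak, is not drawn. The peaks of DUSP5, SPRY4, SPRED1 and ETV4 hold no symbol, and 5 open circles fall inside the DMSO peak of SPRED2.

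For comparison, 36 further genes of the pathway were counted in the same way. Of these, 15 had a promoter peak in DMSO c-MYC (41.7%) and 0 in IgG. The inhibitor lists had 9 (25.0%, AMG510) and 6 (16.7%, trametinib), and 4 genes had one in each c-MYC library. These shares were above those of all genes (24.2% in DMSO c-MYC, 15.3% and 11.8% with AMG510 and trametinib) and near those of CpG-rich promoters (37.8%, 23.9% and 18.7%). The close relatives of the members held the largest number in DMSO. Of 9 feedback relatives, 5 had a DMSO promoter peak, 3 an AMG510 peak and 2 a trametinib peak. DUSP2, a nuclear phosphatase, had the highest, with 67 tags in DMSO (51.9 to 85.1), 20 in AMG510 (12.2 to 30.9) and 28 in trametinib (18.6 to 40.5), and CACGTG within 100 bp of the summit each time. Over all promoter peaks the median height was 16 tags in DMSO, and 13 and 14 with AMG510 and trametinib, and with 1 library each the treatments were not tested against each other. DUSP16, a phosphatase that acts mainly on the stress kinases, had a peak in each c-MYC library, with 19 tags in DMSO, 11 in AMG510 and 12 in trametinib. DUSP1, an immediate-early phosphatase, had one in DMSO (25 tags) and in AMG510 (15 tags). DUSP7, a cytoplasmic ERK phosphatase (12 tags), and SPRY1, a further Sprouty (19 tags), had one in DMSO alone. Each of the inhibitor peaks of these genes overlapped the DMSO peak of the same gene.

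Of 10 other output genes, DMSO c-MYC was found at the promoters of 3, with 0 in the AMG510 list and 1 in the trametinib list. FOSL1, a subunit of the AP-1 transcription factor, had 19 tags in DMSO and 15 in trametinib, in overlapping peaks with CACGTG within 100 bp of the summit. EPHA2, a receptor tyrosine kinase (17 tags), and FOS, another AP-1 subunit (14 tags), had a peak in DMSO alone. Of 10 kinases of the cascade and below it, 4 had one in DMSO and 1 under each inhibitor. Among them, MAPK3, which encodes ERK1 (16 tags), and MAP2K2, which encodes MEK2 (15 tags), had a peak in DMSO alone. MAP2K1, which encodes MEK1, had one in each c-MYC library, with 12 tags in DMSO, 12 in trametinib and 9 in AMG510. The trametinib peak of MAP2K1 did not overlap the DMSO peak.

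Of the 7 transcription factors at the end of the cascade, 5 had a promoter peak in AMG510 (15.3% of all genes), 3 in DMSO (24.2% of all genes) and 2 in trametinib (11.8% of all genes). With 7 genes and 1 library for each treatment, no difference was tested. ELK4, which binds with serum response factor, had 37 tags in DMSO (26.1 to 51.0), 15 in AMG510 (8.40 to 24.7) and 14 in trametinib (7.65 to 23.5), in overlapping peaks. ELK3 had a peak in DMSO alone, with 11 tags. ELK1 (9 tags), the ETS repressor ERF (18 tags) and ETS2 (12 tags) had a promoter peak in AMG510 and none in DMSO. Of all genes without a promoter peak in DMSO, 6.47% had one in AMG510. CIC, the repressor of ETV4 and ETV5, had a peak in AMG510 (17 tags) and one in DMSO (15 tags), which did not overlap. Their summits were 14974 bp (AMG510) and 15285 bp (DMSO) from its canonical TSS, so both count through another coding transcript. ETS2 also had a trametinib peak of 12 tags.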

How the data were processed

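Peaks from 4 ChIP-seq libraries were used as deposited. Per the study's methods, the authors trimmed reads (Trimmomatic 0.39), aligned them to GRCh38 (BWA 0.7.17), kept confident alignments (SAMtools 1.9), removed duplicates, converted each mate to its own interval (bedtools 2.27.1), called peaks per library with MACS2 2.2.7.1 and dropped peaks on the ENCODE exclusion list. For each summit the deposited columns give a fold enrichment (a ratio of pileup to background), the p-value and the q-value (each as −log10) and the summit position; the deposited score is 10 times the −log10 q-value without its decimals. The smallest deposited −log10 q-value was 1.30 to 1.31 per list.

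Tags at a summit and its background were solved from fold enrichment and p-value. A whole number of summit tags gave the deposited −log10 p-value to within 0.001 for 100% of peaks, and 99.7% to 100% of the backgrounds above the genome-wide one came to whole tags per 10 kb, to within 0.01. Back-calculated from the genome-wide background, the tags used in calling were about 22700000 (IgG), 24000000 (DMSO), 24300000 (AMG510) and 24800000 (trametinib c-MYC). These are estimates, not counts of aligned reads, and rest on the shortest peak width as extension length and an assumed genome of 2700000000 bp, so no order of depth is read from them. The step was tested on simulated data. Genes are those of GENCODE 44, a reference whose build is that of the files; coordinates are 1-based. Gene windows were searched for peaks overlapping by at least 1 bp. Groups come from sample titles. With 1 library per group no test was possible, and counts stand beside those of all protein-coding genes. The members, lists and measures were chosen with earlier results of these data known. All 10 members are named, and other pathway genes where a c-MYC library had a promoter peak, except 1 that is not reported here. Alternatives changed the TSS distance, transcripts, peak thresholds, gene window and overlap rule. Python 3.11.15, SciPy 1.17.1 and pysam 0.24.0 were used.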

Additional observations from a re-analysis of the deposited data

How the results depend on the processing

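No paired analysis was possible because no treatment has more than 1 library, which also left no replicate to omit. Of 59 values under alternatives, for 11 counts, 43 stayed within 1.5 times the reported count and 16 did not; with counts this small, 1 gene is often enough. Cutoffs on peak strength moved most. At a fold enrichment above 5, genes with a peak in or within 10 kb went from 4 to 2 in DMSO c-MYC (SPRED1 and ETV4), from 3 to 1 in AMG510 (SPRED2) and from 1 to 0 in IgG, and the AMG510 promoter count from 1 to 0. At a score above 60 the promoter count was 0 under each inhibitor. The wider count was then 2 in DMSO c-MYC and 0 in IgG, in AMG510 and in trametinib. The trametinib peak of SPRED1 has a score of exactly 60. Neither cutoff has a share over all genes beside it, so these counts are not read as binding lost under an inhibitor. Of all promoter peaks, 46.3% in DMSO c-MYC, 35.1% in AMG510 and 39.5% in trametinib passed the fold cutoff. In trametinib the promoter count fell from 2 to 1 with a limit of 500 bp (SPRED2 left) and to 1 with canonical transcripts only (SPRED1 left). With a limit of 5 kb it rose to 2 in AMG510, and with a window of 50 kb the IgG count rose to 2. SPRED2 was added to the 3 genes with a DMSO promoter peak at 2 kb, at 5 kb or where any base of the peak could be within 1 kb. The overlap of the SPRED1 peaks was lost when 50% of each peak had to overlap (0 of 3). CACGTG was within 500 bp of the TSS at 0 members. In each case the construction of the alternative gives the change. Summits of 9 to 22 tags limit every statement on a single gene.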

Other observations

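Beyond 10 kb, 4 further peaks lay within 50 kb of a member. In AMG510 these were 52478 bp from the TSS of DUSP5 (10 tags), 25938 bp from that of SPRY4 (12 tags) and 170838 bp from that of SPRED2 (8 tags), all downstream. In IgG 1 lay 166418 bp from the TSS of SPRED2 (8 tags). None of the 4 had an E-box of either form within 100 bp of its summit. Counted to 50 kb, the number of members with a peak was 4 in DMSO c-MYC, 4 in AMG510, 3 in trametinib and 2 in IgG. No share over all genes stands beside these counts, so they are not read as many or few.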
